A study of Mus musculus with 16 samples.

Results

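The 43 genes described here encode the machinery that copies DNA in S phase and the enzymes that supply it with nucleotides. They were chosen by symbol. Each symbol matched 1 mouse Ensembl identifier among the 55414 of the count table, and all 43 were among the 18878 identifiers tested, which averaged 10 counts or more per library. The libraries hold bulk RNA from leukaemia-propagating cells (LPC), the sorted cells taken to carry a leukaemia forward, of a mouse model of pro-B acute lymphoblastic leukaemia (ALL) of infants. All 4 groups share the Kmt2a-AFF1 fusion and the overexpression of the microRNA miR-128a, so no group here lacks either. BM LSK cells were lineage-negative, positive for Sca1, cKit and IL7R, and taken from bone marrow (BM), and CNS LSK cells carried the same antigens but came from the central nervous system (CNS). BM LK and CNS LK cells, titled LK/CLP, were lineage-negative and cKit-positive without Sca1, from BM and CNS respectively. Each group has 4 libraries, and the comparisons were made by niche (CNS against BM) and by LPC type (LSK against LK). The labels used here give no age, strain, treatment or promoter of the microRNA. They do not say whether libraries of a group came from separate mice, so p-values measure the spread between these libraries only. The BM and CNS libraries of 1 LPC type and number share an identifier, called a stem below. There are 8 stems, and what a stem stands for is not given.

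Replication begins with licensing, in which the origin recognition complex with Cdc6 and Cdt1 loads the ring-shaped MCM helicase onto DNA. Cdc45 and the GINS complex then join the MCM ring to form the active helicase, the primase and DNA polymerases synthesise the new strands, the PCNA clamp holds the polymerases on DNA, and Fen1 and Lig1 process and join the fragments of the lagging strand. Ribonucleotide reductase, thymidylate synthase and thymidine kinase supply the deoxynucleotides. Many of these genes are known targets of E2F transcription factors and are transcribed around the transition from G1 to S phase, whereas genes of G2 phase and mitosis are transcribed later in the cycle. In dividing leukaemia cells both sets are used.

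What the genes share in sequence was examined at their start sites, because E2F factors are their textbook regulators. RefSeq promoters of build GRCm38.p6, each running from 250 bases before to 50 bases after the start, were found for 36 of the 43 genes. They were searched on both strands for 4 spellings of 8 bases that an E2F site can take: TTTCCCGC, TTTGGCGC, TTTGCCGC and TTTCGCGC. At least 1 spelling was found in 15 genes, which is 41.7% of the 36. Per promoter the share was 35.7% (15 of 42), against 2.26% (744 of 32851) of all promoters of that length, and 1 of 26 genes of a G2/M list held a spelling. A match describes these letters only. The 250 bases before the start are printed below for 5 of the 15 genes, 3 subunits of the helicase ring, the loader Cdc6 and the polymerase subunit Pola1, with matches in capitals and read 5′ to 3′ along the gene's strand. They lie at chr8:75109259-75109508 on the plus strand (Mcm5), chr1:128359706-128359955 on the minus strand (Mcm6), chr5:138171884-138172133 on the minus strand (Mcm7), chr11:98907901-98908150 on the plus strand (Cdc6) and chrX:93632156-93632405 on the minus strand (Pola1).
Mcm5: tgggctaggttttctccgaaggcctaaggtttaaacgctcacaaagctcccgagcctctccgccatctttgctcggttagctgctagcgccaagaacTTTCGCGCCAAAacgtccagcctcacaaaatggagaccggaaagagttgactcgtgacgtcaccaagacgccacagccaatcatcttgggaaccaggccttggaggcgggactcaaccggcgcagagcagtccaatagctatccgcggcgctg
Mcm6: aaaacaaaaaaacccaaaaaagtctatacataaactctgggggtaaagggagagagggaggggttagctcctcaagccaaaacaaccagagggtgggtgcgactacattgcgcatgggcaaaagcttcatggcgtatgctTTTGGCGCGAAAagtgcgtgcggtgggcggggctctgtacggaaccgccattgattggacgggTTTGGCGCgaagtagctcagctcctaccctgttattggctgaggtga
Mcm7: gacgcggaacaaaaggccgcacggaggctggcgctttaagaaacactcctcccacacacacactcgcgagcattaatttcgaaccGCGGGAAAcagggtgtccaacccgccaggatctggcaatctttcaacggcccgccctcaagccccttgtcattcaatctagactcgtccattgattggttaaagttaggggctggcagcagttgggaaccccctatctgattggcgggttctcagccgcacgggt
Cdc6: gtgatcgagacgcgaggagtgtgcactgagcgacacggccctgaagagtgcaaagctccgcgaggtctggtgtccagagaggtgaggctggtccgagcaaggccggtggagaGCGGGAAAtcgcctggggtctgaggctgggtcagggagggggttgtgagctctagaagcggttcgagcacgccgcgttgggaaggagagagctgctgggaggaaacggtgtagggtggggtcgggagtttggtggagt
Pola1: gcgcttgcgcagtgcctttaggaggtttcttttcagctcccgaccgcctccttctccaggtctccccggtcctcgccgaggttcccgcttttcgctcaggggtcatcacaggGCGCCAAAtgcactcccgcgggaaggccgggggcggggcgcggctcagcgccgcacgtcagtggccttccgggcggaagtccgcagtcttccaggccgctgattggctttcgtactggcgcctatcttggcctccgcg
In Mcm5 the run in capitals is a pair of overlapping matches on opposite strands, which begin 153 and 149 bases before the start. Mcm6 has an overlapping pair, beginning 110 and 106 bases before the start, and a separate match at 47. The single capitalised match begins 165 bases before the start in Mcm7 and 138 bases before it in both Cdc6 and Pola1.

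The library totals ran from 19163942 to 29232623 counts, of which 43.3% to 48.5% lay in protein-coding genes. Levels below are in CPM, counts scaled to a common library size. A background index, the CPM of named counts that fell in olfactory and vomeronasal receptor genes, was lowest in BM LSK 3, at 312, and highest in CNS LSK 2, at 1125. Its group means were 619 ± 244 in BM LSK, 933 ± 156 in CNS LSK, 451 ± 72.7 in BM LK and 655 ± 232 in CNS LK (SD, n = 4 each). CNS LSK 2 also had the most genes detected (46067, against 33600 in the library with the fewest) and the lowest summed level of the 43 genes. Counts and medians of the LSK niche comparison are given with and without it. In bulk RNA, fewer cells in S phase and less of these transcripts per cell cannot be told apart.

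The pro-B label was set beside its defining markers. Rag1 was at 276 CPM (214 to 343 over the libraries), and the other pro-B genes given here were near 0. Pax5 averaged 0.596 CPM, Ebf1 0.670, Cd79a 1.04, Vpreb1 0.187 and Igll1 0.154. Of 14 T and NK cell genes, Tcf7 averaged 579 CPM, Bcl11b 292, Lck 223, Cd247 112 and Ptcra 90.4, while Cd3d, Cd3e and Cd3g averaged 0.676, 0.277 and 0.572. The summed T and NK level was 1224 to 1548 CPM over all libraries and overlapped between the groups. So these defining B-lineage genes were nearly absent in every library, and the cells are called LSK and LK below. Of the sort antigens, Kit averaged 139 CPM and Il7r 83.3. Ly6a, which encodes Sca1, the antigen that sets LSK apart from LK, was near 0 in every group, at 1.33 ± 0.146 CPM in BM LSK, 1.69 ± 0.586 in CNS LSK, 0.544 ± 0.0717 in BM LK and 0.681 ± 0.205 in CNS LK (SD, n = 4). Its lowest LSK library (0.944) lay above its highest LK library (0.906), and the LSK and LK names are kept as those of the sort. Markers of myeloid cells summed to at most 6.99 CPM in a library, and of microglia and brain macrophages to at most 6.69, and erythroid markers to 1.96 to 3.66. Neural, glial and meningeal markers summed to 33.4 to 62.2 CPM, of which Mbp made up 36.3 on average.

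All 43 genes were detected in every library, at levels that spanned a wide range. On the scale of CPM per kilobase of annotated exon, the only scale on which genes are set against each other here, Uhrf1 was highest at 85.8, followed by Mcm6 at 65.7, Mcm3 at 54.3, Pcna at 53.5 and Mcm7 at 46.1 (means over 16 libraries). Uhrf1 brings the maintenance methyltransferase to newly copied DNA. The length counts every annotated exon of a gene over all its transcripts, so it can exceed the length of the transcript present. Ranks of genes on this scale are therefore approximate, as for Rrm1, at 18.0 with 11.0 kilobases and 198 CPM. The 6 subunits of the MCM ring all stood at 29.5 or above, and only 10 of the 43 genes exceeded 25 on this scale, the 6 subunits with Uhrf1, Pcna, Lig1 at 40.1 and Rrm2 at 33.4. The other parts of the helicase were lower, with a median of 7.73 for Mcm10, Cdc45 and the 4 GINS genes and 2.47 for Gins2. The 9 polymerase and primase genes had a median of 9.34, from 3.96 for Pole2 to 18.2 for Pold1. The 4 licensing genes ran from 3.75 for Orc1 to 14.6 for Cdt1. Fen1 was lowest at 0.914, with a mean of 52.7 counts per library and 27 in the library with the fewest. Uhrf1 had the highest mean count, 8691.

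**Figure D1:**
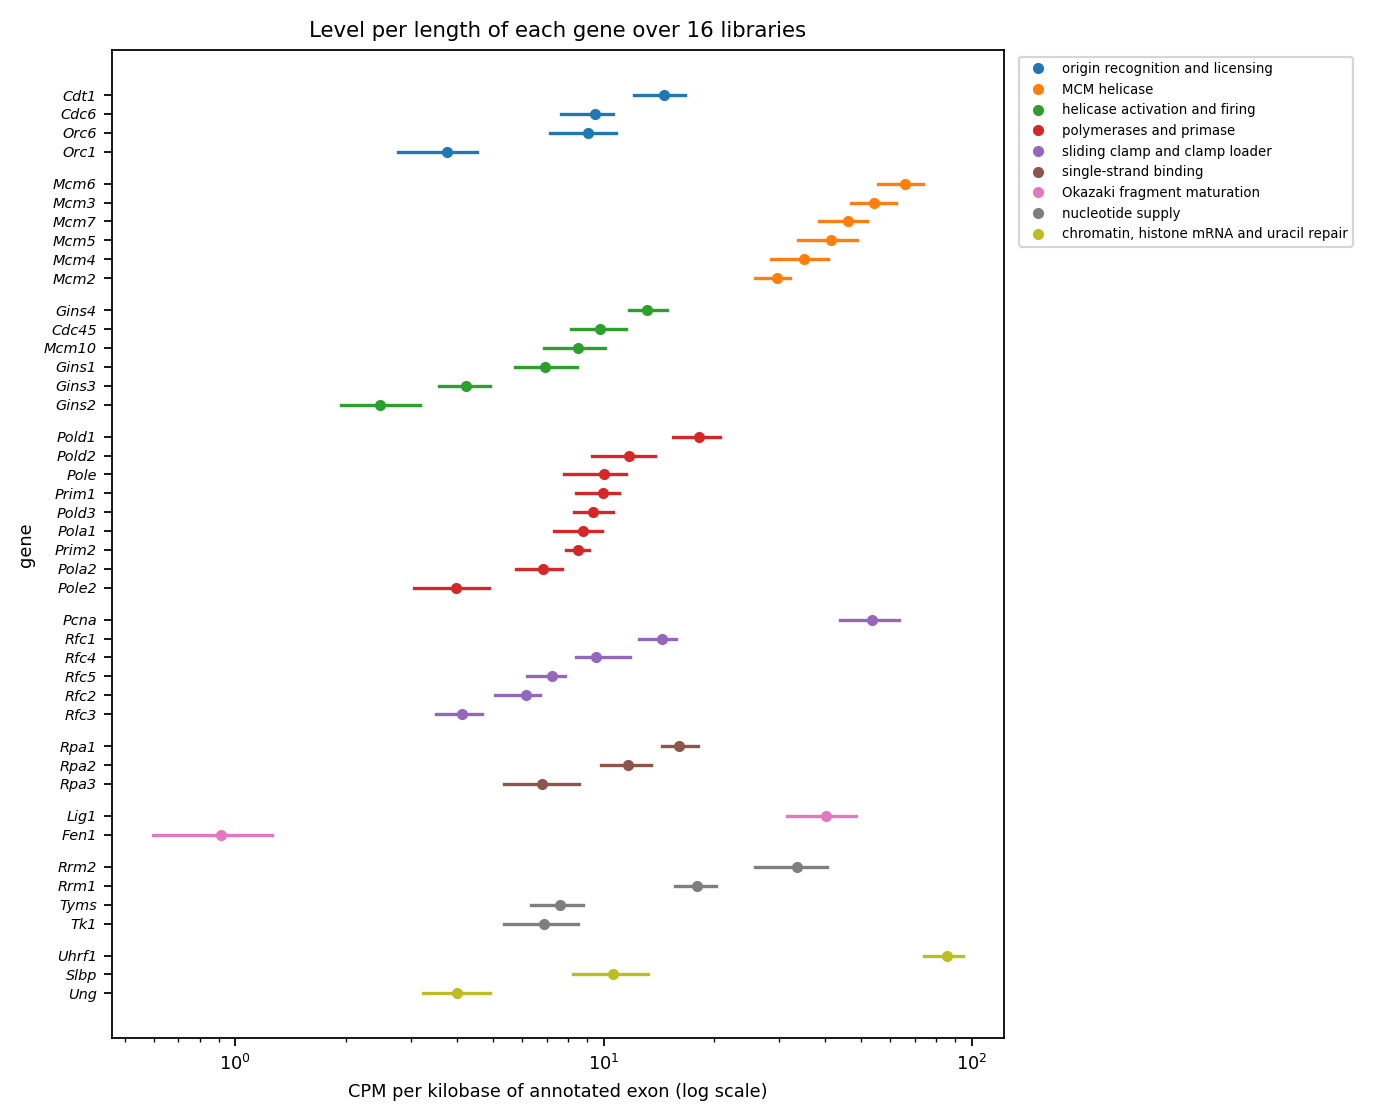
Mean level of each of the 43 genes over 16 libraries (points) with the lowest and highest library (lines), in CPM per kilobase of annotated exon on a log axis, coloured by role. The 6 MCM subunits, Pcna, Lig1, Rrm2 and Uhrf1 sit above 25, and Fen1 sits lowest at 0.914.

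Between libraries each gene varied little. The ratio of the highest to the lowest library ran from 1.15 for Prim2 to 1.64 for Gins2 over 42 of the genes, and was 2.11 for Fen1. CNS LSK 2 was the lowest library for 28 of the 43 genes. No other library was lowest for more than 5, and BM LSK 4 was highest for 9. Counting may blur some values. Exons of 13 genes overlap an exon on the opposite strand, among them Fen1 with Gm10143 and Tmem258, and 3 overlap on the same strand, and whether the counting used strand is not given in the sources used here. Near-identical copies exist for 7 genes, Mcm7, Pcna, Rfc5, Cdc6, Rrm2, Uhrf1 and Tyms, and their values are uncertain to the extent that reads were split.

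**Figure D2:**
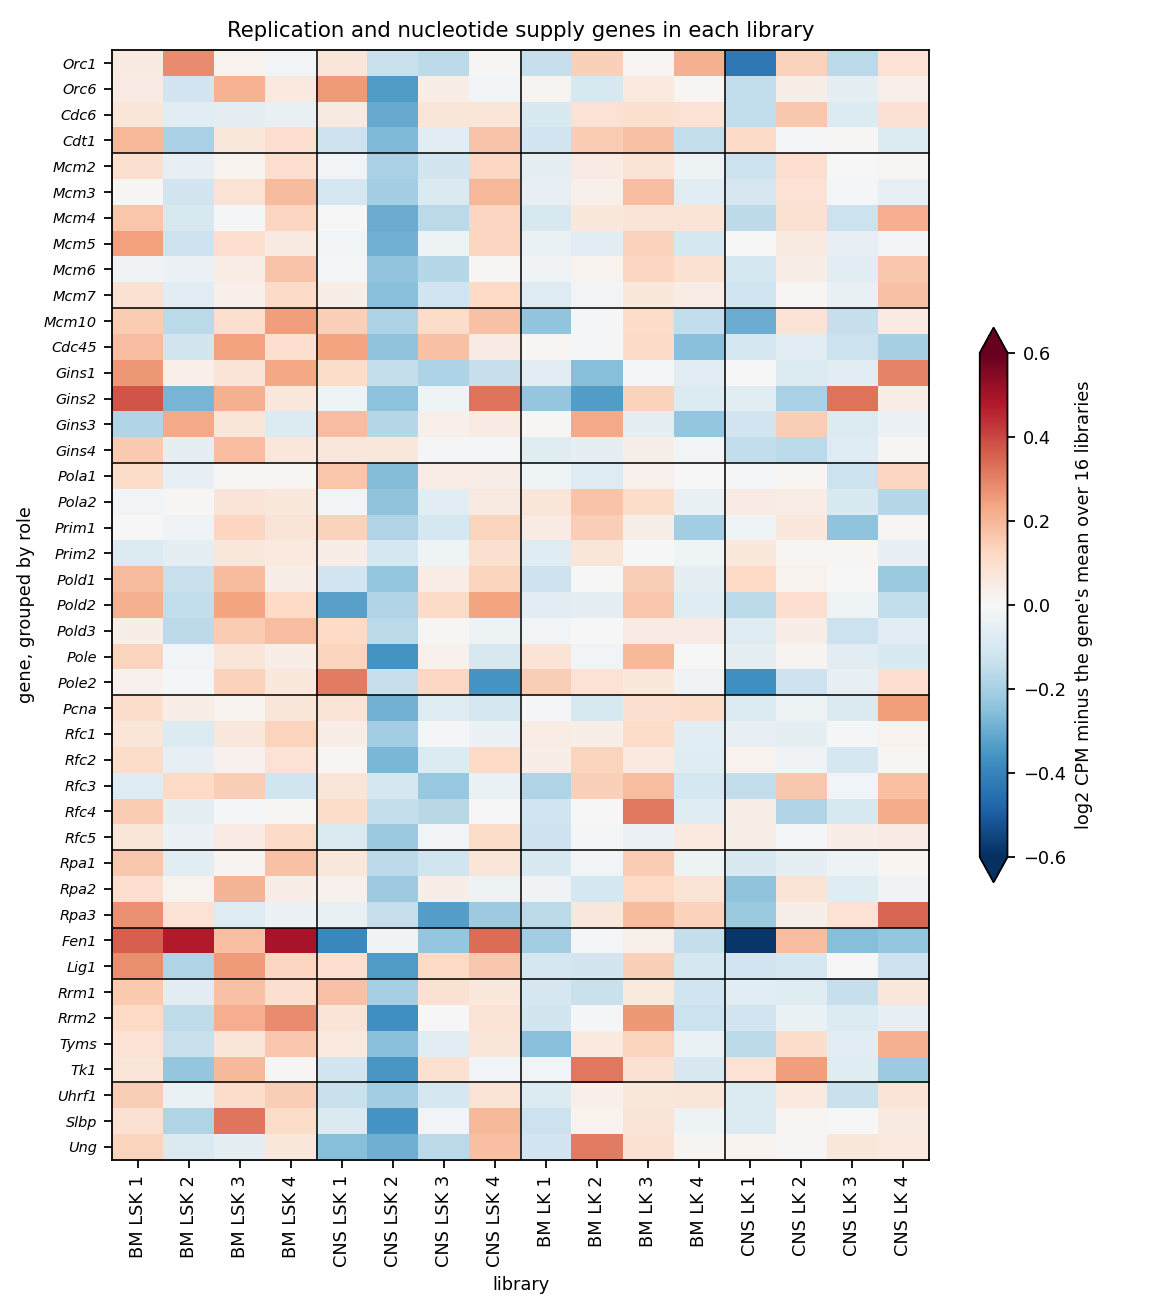
Level of each gene (rows, grouped by role) in each library (columns), as log2 CPM minus the gene's mean over the 16 libraries, with blue below and red above. The column of CNS LSK 2 is blue in nearly every row, and Fen1 is red in all 4 BM LSK libraries.

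The niche comparison asked whether these genes differ between cells taken from CNS and from BM. No gene of the 43 passed the test, in LSK cells, in LK cells or over both. Most of them had slightly lower fitted values in CNS: in LSK cells 40 of 43 did (48.7% of all genes), with a median log2 change of -0.10 (0.932-fold for the gene at the median), against 0.0056 over all 18878 genes tested and -0.035 over genes with a mean of at least 50 counts. In LK cells 31 of 43 were lower (48.5% of all genes), with a median of -0.032 against 0.0050 and -0.012. Over both LPC types 40 were lower (50% of all genes), with a median of -0.068 against -2.2e-06 and -0.024. The split depended on scaling: with no filter on low counts, where the all-gene median itself moved to 0.15 over both LPC types, 43 were lower over both and 39 in LK, and with a minimum mean of 50 counts 34 were lower over both.

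By edgeR's quasi-likelihood test with Benjamini-Hochberg adjustment, 0 of the 43 genes passed 0.05 in each of the 3 niche comparisons, and 0% of all genes did. At an unadjusted p under 0.05, 3 of 43 were lower in CNS LSK than in BM LSK, where 1.92% of all genes were, and 0 of 43 did so in LK (3.99% of all genes in either direction) or over both LPC types (9.15%). DESeq2 also called 0 of the 43, with 3, 0 and 2 at an unadjusted p under 0.05. For DESeq2 and for fits with 1 library left out, here and below, the share of all genes at that p was not counted. Those counts therefore stand without a background. With the stem shared by a BM and a CNS library as a block, none of the 43 was called, but 9 of 43 were lower in CNS LSK at an unadjusted p under 0.05 (4.59% of all genes) and 7 of 43 over both LPC types (5.38%). The smallest adjusted p of any of the 43 genes was 0.855 in LSK, 1 in LK and 0.546 over both (edgeR). No gene of the 43 had CNS and BM values that did not overlap, in LSK or in LK. Of all genes, 1.59% were lower and 2.09% higher without overlap in LSK, and 0.81% lower and 1.37% higher in LK.

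CNS LSK 2 and BM LSK 2, both low, share a stem. The size of the LSK difference moved when 1 of them was left out, but little when both were. Leaving out CNS LSK 2 alone, here and by role below, keeps its low BM partner in the comparison. Without CNS LSK 2 the median in LSK was -0.043, with 33 of 43 lower, and without BM LSK 2 it was -0.14. With both left out it was -0.098, with 39 of 43 lower, near the -0.10 of all libraries. With the background index as a covariate it was -0.062, with 34 of 43 lower, and over both LPC types it was -0.023, with 27 lower. Over both LPC types the median without CNS LSK 2 was -0.036. In LK it turned to 0.0087 without BM LK 3, and it was -0.013 without CNS LK 1, -0.016 without CNS LK 3 and -0.061, -0.056 and -0.053 without BM LK 1, BM LK 4 and CNS LK 4. The 3 genes at an unadjusted p under 0.05 in LSK became 0 to 5 when 1 library was left out. Among the intervals, those of 41 of 43 genes in LSK and 42 of 43 in LK lay within 0.5 of 0 on the log2 scale.

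**Figure D3:**
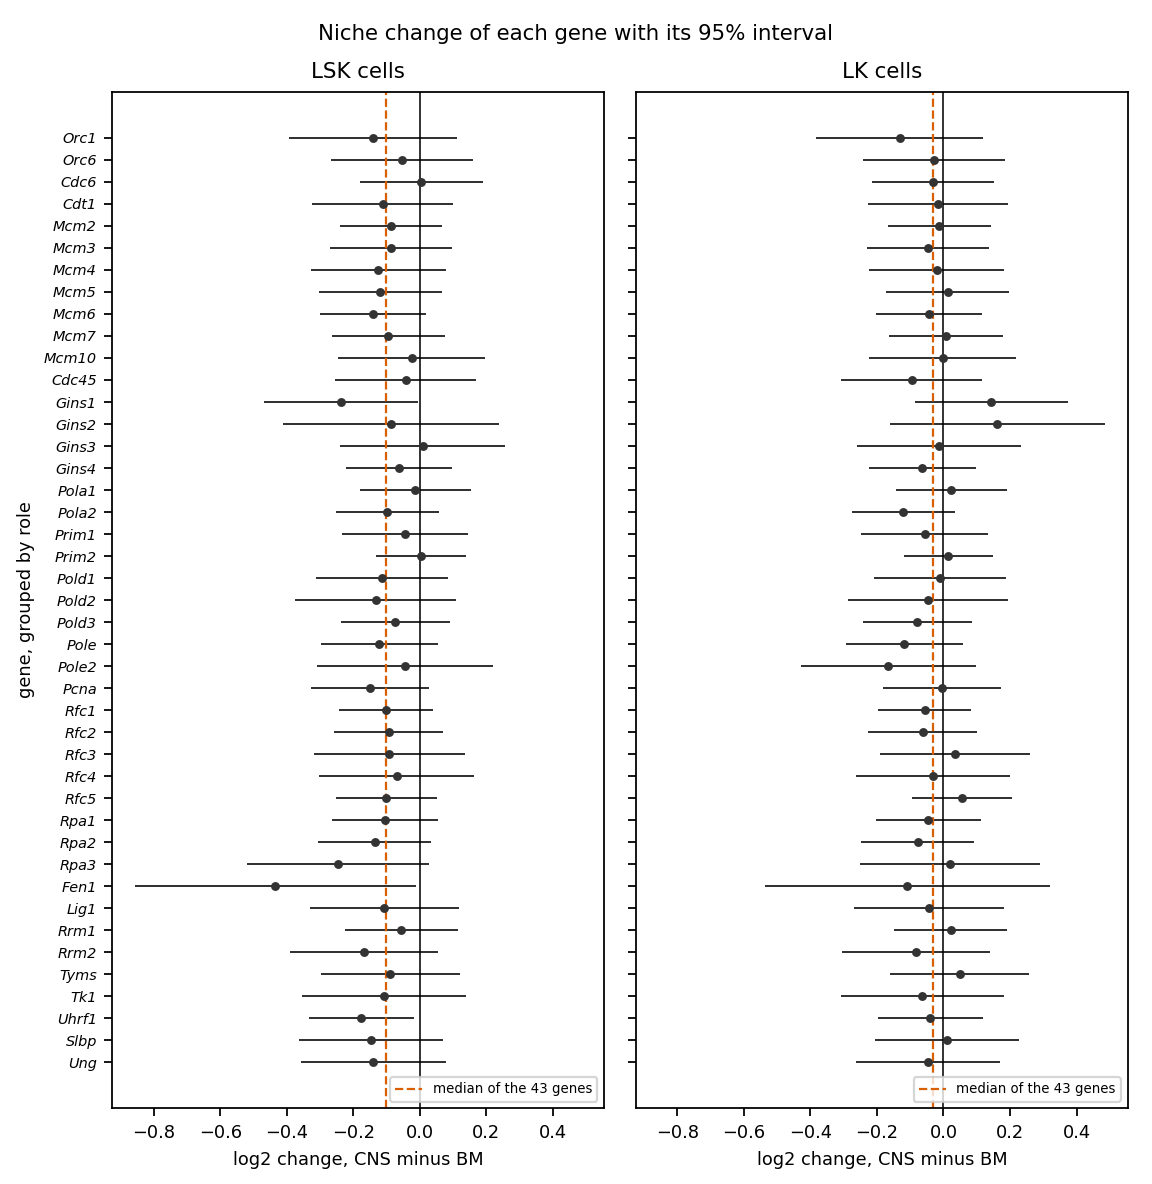
Fitted log2 change from BM to CNS of each gene in LSK cells (left) and LK cells (right), with its 95% interval; the dashed line is the median of the 43 genes. In LSK 40 points lie below 0 and the median is -0.10, and in LK 31 points lie below 0 and the median is -0.032.

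Values are given below by role, as CPM in libraries 1 to 4 of each group, in that order. Among the licensing genes, Orc1, the largest subunit of the origin recognition complex, stood at 13.4, 15.8, 13.2 and 12.8 CPM in BM LSK, 13.6, 11.8, 11.6 and 13.0 in CNS LSK, 11.8, 14.3, 13.1 and 15.0 in BM LK and 9.64, 14.3, 11.6 and 13.8 in CNS LK. BM LSK 2 was highest and CNS LK 1 lowest, and the groups overlapped. Its log2 niche change was -0.14 (95% interval -0.39 to 0.11) in LSK and -0.13 (95% interval -0.38 to 0.12) in LK. Orc6, the smallest subunit, was at 23.1, 20.6, 25.7 and 23.2 CPM in BM LSK, 26.6, 17.6, 22.9 and 22.0 in CNS LSK, 22.5, 20.9, 23.2 and 22.5 in BM LK and 20.1, 22.9, 21.5 and 22.8 in CNS LK. Its lowest library was CNS LSK 2 and its highest CNS LSK 1, so the spread within CNS LSK exceeded every difference between group means. Cdc6, which completes the loading platform, was at 52.0, 47.3, 47.5 and 48.0 CPM in BM LSK, 51.3, 40.1, 52.0 and 52.1 in CNS LSK, 46.4, 52.5, 52.9 and 52.5 in BM LK and 44.7, 55.4, 46.8 and 52.8 in CNS LK. CNS LSK 2 was the lowest of all libraries for Cdc6, while the other 7 LSK libraries lay close together. Its niche change in LSK was 0.0045 (95% interval -0.18 to 0.19), and 0.089 without CNS LSK 2, when 2 of the 4 licensing genes were lower in CNS LSK. Cdt1, which brings the MCM ring to origins, was at 52.3, 39.8, 47.8 and 48.8 CPM in BM LSK, 41.8, 37.9, 43.6 and 51.2 in CNS LSK, 42.0, 50.7, 51.5 and 41.3 in BM LK and 49.3, 45.4, 45.7 and 43 in CNS LK, again with CNS LSK 2 lowest and full overlap.

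Of the helicase ring, Mcm2 stood at 219, 198, 208 and 219 CPM in BM LSK, 203, 179, 189.7 and 223 in CNS LSK, 197, 212, 217 and 200.4 in BM LK and 187, 219.9, 205 and 206 in CNS LK. The highest and the lowest library of Mcm2 were both CNS LSK, replicates 4 and 2. Mcm5, which forms the gate of the ring with Mcm2, was at 195, 151, 176 and 171 CPM in the BM LSK libraries, 163, 135, 161 and 180.0 in the CNS LSK libraries, 160.2, 158, 181 and 153 in BM LK and 165, 171, 159 and 162 in CNS LK. BM LSK 1 was highest and CNS LSK 2 lowest for Mcm5, and the niche groups overlapped in both LPC types. All 6 ring subunits had a lower fitted value in CNS LSK, from -0.14 to -0.086, and none passed the test. Without CNS LSK 2 all 6 were still lower, from -0.099 to -0.032. In LK their changes ran from -0.047 to 0.012, with 4 of 6 lower.

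Mcm10, which helps the helicase to start, was at 72.6, 58.4, 69.9 and 77.8 CPM in BM LSK, 72.2, 57.4, 70.4 and 73.8 in CNS LSK, 55.5, 64.9, 70.4 and 59.0 in BM LK and 53.1, 69.0, 59.2 and 67.6 in CNS LK. Leaving replicate 2 aside, the LSK values of Mcm10 lay above the LK values, except that BM LK 3 exceeded BM LSK 3, and replicate 2 of both LSK groups was low. Cdc45, the helicase cofactor, was at 38.7, 31.6, 40.3 and 36.6 CPM in the BM LSK libraries, 40.2, 28.9, 38.6 and 35.3 in the CNS LSK libraries, 34.4, 34.0, 36.9 and 28.7 in BM LK and 31.7, 32.7, 31.2 and 29.7 in CNS LK. For Cdc45 the lowest library was BM LK 4 and the highest BM LSK 3. Its change between niches was -0.043 (95% interval -0.25 to 0.17) in LSK and -0.096 (95% interval -0.31 to 0.12) in LK. The GINS complex has 4 subunits, of which 3 are given here. Gins1 stood at 12.5, 10.6, 11.0 and 12.3 CPM in BM LSK, 11.2, 9.43, 9.17 and 9.46 in CNS LSK, 9.96, 8.73, 10.4 and 9.97 in BM LK and 10.4, 9.86, 9.97 and 12.8 in CNS LK. In Gins1 all 4 BM LSK libraries exceeded all 4 BM LK libraries, and CNS LSK overlapped BM LSK only through CNS LSK 1. Gins2 was at 13.0, 8.26, 11.6 and 10.5 CPM in the BM LSK libraries, 9.85, 8.46, 9.84 and 12.5 in the CNS LSK libraries, 8.53, 7.94, 11.0 and 9.45 in BM LK and 9.59, 8.75, 12.6 and 10.3 in CNS LK. Its replicates differed by more than its group means did. Gins4 was at 19.6, 16.9, 20 and 18.5 CPM in BM LSK, 18.4, 18.4, 17.4 and 17.5 in CNS LSK, 16.8, 17.0, 18.0 and 17.4 in BM LK and 15.9, 15.8, 16.7 and 17.8 in CNS LK. Its 3 lowest libraries were CNS LK, while CNS LK 4 lay in the middle of the range. Without CNS LSK 2, 3 of the 6 helicase activation genes were lower in CNS LSK, and Mcm10, Cdc45 and Gins3 were above 0.

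Gins1 was the gene whose niche change differed most between LPC types, at -0.24 (95% interval -0.47 to -0.0048) in LSK and 0.14 (95% interval -0.087 to 0.38) in LK. The difference of the changes was -0.38 (95% interval -0.71 to -0.054) with an adjusted p of 1 by edgeR's quasi-likelihood test. It was the only gene of 43 at an unadjusted p under 0.05 for that difference, where 1.49% of all genes were, and 0 of 43 and 0% of all genes passed after adjustment. DESeq2 also had 1 of 43 at an unadjusted p under 0.05 and called none. Over the 43 genes the median difference was -0.064, with 35 below 0 (51.7% of all genes), against -0.0072 over all genes and -0.023 over genes with a mean of at least 50 counts. The median of the 43 was -0.0065 without CNS LSK 2, -0.097 without CNS LSK 4 and -0.11 without BM LK 3.

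Among the polymerases and primase, Pola1, the catalytic subunit of the polymerase that starts each strand, stood at 83.7, 74.9, 77.8 and 78.1 CPM in BM LSK, 87.1, 64.8, 79.9 and 79.7 in CNS LSK, 76.0, 73.5, 78.9 and 77.7 in BM LK and 77.2, 78.2, 71.0 and 84.7 in CNS LK. CNS LSK 2 was the lowest library of Pola1 and the other 3 CNS LSK values lay within or above the BM LSK range, and its change in LSK was -0.014 (95% interval -0.18 to 0.15). Pola2, the accessory subunit of the same polymerase, was at 56.1, 57.1, 59.8 and 59.3 CPM in the BM LSK libraries, 56.0, 48.1, 54.2 and 58.9 in the CNS LSK libraries, 59.6, 63.8, 61.3 and 55.1 in BM LK and 58.7, 58.4, 53.3 and 50.4 in CNS LK. It was lower in the CNS library in all 8 stems, the only gene of 43 to be so, where 1.45% of all genes were. Over both LPC types its change was -0.11 (95% interval -0.22 to 0.00021) with an adjusted p of 0.546 (edgeR), the smallest of the 43 in that comparison. Prim1, the catalytic primase subunit, was at 38.5, 38.0, 42.1 and 40.6 CPM in BM LSK, 42.4, 34.0, 35.8 and 42.2 in CNS LSK, 39.8, 42.7, 39.4 and 33.5 in BM LK and 37.8, 40.2, 32.6 and 38.7 in CNS LK, with full overlap.

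Pole, the catalytic subunit of the leading-strand polymerase, was at 122, 110.1, 117 and 115 CPM in BM LSK, 122, 87.0, 114 and 104 in CNS LSK, 118, 110.3, 128 and 112 in BM LK and 107, 113, 107 and 105 in CNS LK. CNS LSK 2 was lowest, while CNS LSK 1 equalled the highest BM LSK library to 3 digits. In LK the highest CNS value lay among the BM values, and the changes of Pole were -0.12 (95% interval -0.30 to 0.055) in LSK and -0.12 (95% interval -0.29 to 0.059) in LK. Pole2, a subunit of the same enzyme, was at 11.5, 11.2, 12.5 and 11.9 CPM in the BM LSK libraries, 14.1, 10.3, 12.4 and 8.87 in the CNS LSK libraries, 12.6, 12, 11.8 and 11.2 in BM LK and 8.79, 10.4, 11.0 and 12.1 in CNS LK. The lowest values of Pole2 were in CNS LK 1 and CNS LSK 4 and the highest in CNS LSK 1, a spread within CNS LSK wider than in any other group. Its change in LK was -0.17 (95% interval -0.43 to 0.098). Of all 9 polymerase and primase genes, 8 were lower in CNS LSK and 7 in CNS LK. Without CNS LSK 2 only 5 of 9 were lower in CNS LSK, and Pola1, Prim1, Prim2 and Pole2 were above 0.

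Pcna, the sliding clamp, stood at 138, 131, 129.9 and 135 CPM in BM LSK, 136, 105, 122 and 119 in CNS LSK, 127, 119.6, 137 and 138 in BM LK and 121, 125, 120.4 and 152 in CNS LK. BM LSK libraries of Pcna were close together, CNS LSK 2 was lowest and CNS LK 4 stood above all others. Its change was -0.15 (95% interval -0.33 to 0.029) in LSK and -0.0043 (95% interval -0.18 to 0.17) in LK. The clamp is loaded by replication factor C, whose 5 genes were all lower in CNS LSK. With Pcna they had changes of -0.089 to -0.025 without CNS LSK 2. Rfc3 was at 14.0, 16.1, 16.4 and 13.6 CPM in the BM LSK libraries, 15.6, 13.8, 12.7 and 14.4 in the CNS LSK libraries, 13.1, 16.4, 16.8 and 13.8 in BM LK and 13.4, 16.6, 14.6 and 16.8 in CNS LK, with CNS LSK 3 lowest. Rfc5 was at 35.5, 32.9, 35.0 and 36.6 CPM in BM LSK, 31.8, 28.9, 33.3 and 36.5 in CNS LSK, 30.9, 33.5, 32.9 and 35.2 in BM LK and 34.6, 33.6, 34.7 and 34.9 in CNS LK. The LSK change of Rfc5 was -0.10 and its LK change 0.056, and the difference between them had an adjusted p of 1 (edgeR).

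Replication protein A coats single-stranded DNA. Rpa2 was at 37.2, 35.3, 40.1 and 35.8 CPM in BM LSK, 35.4, 29.9, 35.7 and 34.1 in CNS LSK, 34.3, 32.3, 37.7 and 36.9 in BM LK and 29.5, 36.8, 33.1 and 34.3 in CNS LK, with overlap in both LPC types. Rpa3, its smallest subunit, was at 9.29, 8.15, 7.28 and 7.50 CPM in the BM LSK libraries, 7.45, 6.97, 6.11 and 6.59 in the CNS LSK libraries, 6.87, 8.04, 8.75 and 8.45 in BM LK and 6.59, 7.86, 8.16 and 9.77 in CNS LK. In Rpa3 3 of the 4 CNS LSK values lay below every BM LSK value, and CNS LK 4 was the highest library. Its changes were -0.25 (95% interval -0.52 to 0.029) in LSK and 0.019 (95% interval -0.25 to 0.29) in LK, and LSK minus LK within CNS was -0.26 (95% interval -0.53 to 0.013). All 3 RPA genes were lower in CNS LSK, also without CNS LSK 2 (-0.26 to -0.064).

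Fen1, the nuclease that trims lagging-strand fragments, had the widest differences. It stood at 2.77, 3.01, 2.46 and 3.05 CPM in BM LSK, 1.66, 2.13, 1.84 and 2.73 in CNS LSK, 1.87, 2.15, 2.21 and 1.96 in BM LK and 1.45, 2.46, 1.81 and 1.85 in CNS LK. The 4 BM LSK values exceeded all others except CNS LSK 4, inside their range, and CNS LK 2, just above the lowest of them. Group means were 2.82 ± 0.274 in BM LSK, 2.09 ± 0.468 in CNS LSK, 2.05 ± 0.16 in BM LK and 1.89 ± 0.422 in CNS LK (SD, n = 4). The niche change in LSK was -0.43 (95% interval -0.86 to -0.013) with an adjusted p of 0.855 (edgeR). With so few counts, and with antisense neighbours that share its exons, the value of Fen1 is the least certain of the 43. Lig1, the ligase that joins the fragments, was at 206, 150.0, 203 and 186 CPM in the BM LSK libraries, 183, 134, 185 and 190.2 in the CNS LSK libraries, 158, 157, 188 and 158 in BM LK and 157, 159, 169.6 and 156 in CNS LK. Replicate 2 was the lowest LSK library of Lig1 in both niches, and BM LK 3 stood above the other LK libraries.

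For nucleotide supply, Rrm1, the large subunit of ribonucleotide reductase, was at 219.8, 189, 223 and 212 CPM in BM LSK, 223, 172, 210.1 and 206 in CNS LSK, 184, 179.8, 205 and 182 in BM LK and 188, 187, 179 and 207 in CNS LK. CNS LSK 2 was its lowest library, and 5 of the other LSK values exceeded every LK value. Rrm2, the small subunit that limits the enzyme in the cell cycle, was at 100.2, 82.9, 107 and 112 CPM in the BM LSK libraries, 97.0, 71.4, 92.4 and 97.5 in the CNS LSK libraries, 85.4, 91.8, 110.2 and 84.2 in BM LK and 85.1, 89.6, 87.1 and 88.9 in CNS LK. Its change was -0.17 (95% interval -0.39 to 0.056) in LSK and -0.083 (95% interval -0.31 to 0.14) in LK. Tyms, which makes thymidylate, was at 48.8, 42.0, 48.4 and 51.4 CPM in BM LSK, 48.0, 38.7, 44.1 and 48.5 in CNS LSK, 38.7, 48.0, 50.5 and 44.8 in BM LK and 41.1, 49.5, 43.8 and 53.4 in CNS LK. Its niche groups overlapped throughout. Tk1, the salvage kinase for thymidine, was at 37.5, 30.3, 40.7 and 35.8 CPM in the BM LSK libraries, 32.8, 27.9, 37.9 and 35.1 in the CNS LSK libraries, 35.2, 44.4, 37.9 and 33.3 in BM LK and 37.7, 42.3, 33.8 and 30.6 in CNS LK, with replicate 2 lowest in LSK but highest in LK. The 4 supply genes were all lower in CNS LSK, from -0.17 to -0.056, and 2 of 4 were lower in CNS LK. Without CNS LSK 2, 3 of 4 were lower in CNS LSK and Rrm1 was at 0.015.

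Uhrf1 stood at 403, 354, 392 and 403 CPM in BM LSK, 333, 316, 339 and 386 in CNS LSK, 344, 372, 382 and 383 in BM LK and 344, 380.2, 332 and 385 in CNS LK. The 3 highest libraries of Uhrf1 were BM LSK, and CNS LSK 4 was the only CNS LSK library above BM LSK 2, the lowest of the BM LSK libraries. Group means were 388 ± 23.3 in BM LSK and 343 ± 30.1 in CNS LSK (SD, n = 4). Its change in LSK was -0.18 (95% interval -0.33 to -0.018), which had the smallest unadjusted p of the 43 in that comparison, with an adjusted p of 0.855 (edgeR). In LK it was -0.04 (95% interval -0.20 to 0.12). Slbp, which binds the stem-loop of histone mRNA, was at 68.2, 56.5, 80.0 and 69.2 CPM in the BM LSK libraries, 60.4, 50.2, 63.4 and 73.5 in the CNS LSK libraries, 58.5, 65.0, 67.5 and 62.7 in BM LK and 60.5, 64.5, 63.9 and 66.5 in CNS LK, with BM LSK 3 highest and CNS LSK 2 lowest. Ung, which removes uracil from DNA, was at 23.9, 20.5, 20.9 and 22.8 CPM in BM LSK, 18.2, 17.7, 19.4 and 24.6 in CNS LSK, 20.1, 26.9, 23.2 and 22.0 in BM LK and 22.1, 21.8, 22.8 and 22.6 in CNS LK. In LSK 3 of its CNS values lay below every BM value and CNS LSK 4 was the highest of the 8.

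The 13 remaining genes (Mcm3, Mcm4, Mcm6, Mcm7, Gins3, Rfc1, Rfc2, Rfc4, Prim2, Pold1, Pold2, Pold3 and Rpa1) had niche changes in LSK from -0.14 (Mcm6) to 0.0081 (Gins3), and Prim2 was the other gene above 0 among them, at 0.0033. Their ratio of highest to lowest library ran from 1.15 (Prim2) to 1.48 (Pold2). None passed the test in any comparison.

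Within stems, 16 of the 43 genes were lower in the CNS library in all 4 LSK stems, where 9.11% of all genes were, and 17 of 43 in the 3 LSK stems other than LSK 2, where 14.3% were. The count was 2 of 43 in all 4 LK stems, where 7.35% were. The stems differed from each other. The median log2 difference of the 43 genes between the CNS and the BM library was -0.057, -0.17, -0.14 and -0.0053 in LSK stems 1 to 4, with 31, 41, 40 and 24 genes lower. In LK stems 1 to 4 it was -0.042, 0.017, -0.18 and 0.059, with 27, 18, 40 and 12 lower. LK 3 and LK 4 thus went opposite ways in the 43 genes. Among genes averaging 50 counts or more, 53.9%, 57.0%, 66.7% and 52.0% were lower in the CNS library of LSK stems 1 to 4. Their medians there were -0.024, -0.030, -0.080 and -0.0098. In LK stems 1 to 4 the shares were 48.3%, 48.5%, 55.0% and 58.7%, with medians of 0.0083, 0.0058, -0.022 and -0.042. In LSK 3 most genes at such levels were thus lower as well. The 30 G2/M genes, a list of mitotic genes chosen for comparison, had medians of 0.0026, -0.14, 0.028 and 0.082 in the LSK stems and 0.11, 0.17, -0.33 and 0.32 in the LK stems. In 7 of the 8 stems the CNS library had the higher background index, by 0.24, 0.42, 1.59 and 0.47 on the log2 scale in LSK 1 to 4 and by 0.34, 0.42 and 1.48 in LK 1, 3 and 4. In LK 2 the difference was -0.30. Its part in the lower values of the CNS libraries was not tested beyond the covariate fit above.

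The genes tended to deviate together within a library. CNS LSK 2 lay below its group mean in 40 of 43 genes, with a median deviation of -0.18, and BM LSK 2 in 38 of 43, with -0.12. BM LK 3 lay above its group mean in 39 of 43, CNS LSK 4 in 35 of 43, and BM LK 1 below it in 35 of 43. Among genes with a mean of at least 50 counts, between 38.1% and 57.2% lay below the group mean in any library. Both LSK 2 libraries also lay below the mean in 30 of 30 G2/M genes, with medians of -0.33 in CNS LSK 2 and -0.20 in BM LSK 2, so the 2 lists deviated together in these libraries. In CNS LSK 4, by contrast, 35 of 43 replication genes lay above the group mean while 14 of 30 G2/M genes lay below it. Summed over the 43 genes, the BM LSK level was 3586 ± 220 CPM, and the sums for the other groups were 3328 ± 310 for CNS LSK, 3454 ± 172 for BM LK and 3386 ± 146 for CNS LK (SD, n = 4), and these ranges overlapped.

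**Figure D4:**
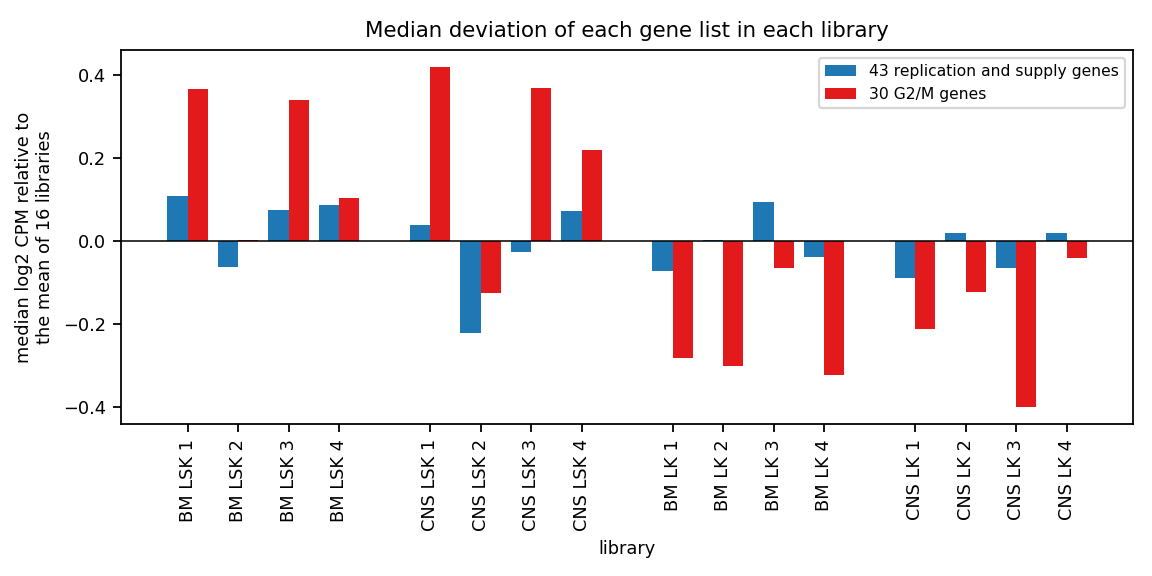
Median log2 CPM of the 43 genes (blue) and of 30 G2/M genes (red) in each library, relative to each gene's mean over the 16 libraries. The blue bars lie between -0.22 (CNS LSK 2) and 0.11 (BM LSK 1), and the red bars are below 0 in all 8 LK libraries and in CNS LSK 2.

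The comparison of LPC types asked whether LSK and LK cells differ in these genes. No gene of the 43 passed the test, and the set was nearly balanced around 0: over both niches 22 were higher (46.8% of all genes) and 21 lower in LSK. Their median log2 change was 0.020, against -0.011 over all genes and -0.032 over genes with a mean of at least 50 counts. Of 30 genes of G2 phase and mitosis 13 passed, all higher in LSK, and the list's median was 0.42 with 30 of 30 higher. That fit takes the BM and CNS libraries of a stem as separate. With their counts summed per stem, 0 of 30 and 0 of all 18878 genes passed. With the background index as a covariate 2 of 30 did, and the share of all genes that passed in the covariate fit is not given here. The 13 include Ube2c (0.72 ± 0.097 SE, adjusted p = 0.00248), which primes mitotic proteins for degradation, Cenpf (0.67 ± 0.11, adjusted p = 0.0117), a kinetochore protein, and Mki67 (0.40 ± 0.076, adjusted p = 0.0299), the proliferation marker, by edgeR's quasi-likelihood test. The difference between the lists was not itself tested.

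By that test 0 of the 43 genes passed 0.05 after adjustment, where 0.238% of all genes (45) did. At an unadjusted p under 0.05, 3 of 43 were higher in LSK, where 7.53% of all genes were, so their share was near the background. These were Cdc45 at 0.16 (95% interval 0.013 to 0.31), Rrm1 at 0.13 (95% interval 0.0081 to 0.25), and Gins4 at 0.12 (95% interval 0.0048 to 0.23), and their adjusted p-values were 0.375, 0.387 and 0.394 (edgeR). DESeq2 had 3 of 43 at that p and called none. With both LSK 2 libraries left out, Lig1, named for this after its values were seen, passed at 0.24 (adjusted p = 0.0435, edgeR), against 0.14 (adjusted p = 0.474, edgeR) with all libraries, and 8 genes were lower and 35 higher. How many of all genes passed in that fit is not given here, so this call stands without a background. The balance depended on scaling and on single libraries: 33 were higher with a minimum mean of 50 counts, 32 with named identifiers only, 26 with RLE scaling, 33 without CNS LSK 2 and 9 with no filter, where the median of all genes was 0.14. The median of the 43 turned to -0.0014 without BM LK 1 and to -0.00093 without BM LSK 3.

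Within BM, LSK against LK gave a median of 0.037 with 35 of 43 higher (48.6% of all genes), and 0 of 43 passed, as 0% of all genes did. The median was -0.0057 over all genes and -0.018 over genes with a mean of at least 50 counts. At an unadjusted p under 0.05, 2 of 43 were higher, where 3.89% of all genes were, and DESeq2 had 3 of 43 and called none. Fen1 and Gins1, the same 2 genes, were the ones whose BM LSK and BM LK values did not overlap, a share of 4.65% where 1.49% of all genes were higher without overlap and 1.64% lower. Their changes were 0.46 (95% interval 0.044 to 0.88) for Fen1 and 0.25 (95% interval 0.016 to 0.48) for Gins1, and their adjusted p-values were 0.743 and 0.756 (edgeR). Within CNS the median was -0.023 with 17 of 43 higher (47.8% of all genes), 0 of 43 passed (0% of all genes), and 0 of 43 reached an unadjusted p under 0.05 (6.58% of all genes) with either tool. There the median was -0.0095 over all genes and -0.042 over genes with a mean of at least 50 counts, the latter below that of the 43. The BM median of the 43 was 0.076 without BM LSK 2, 0.071 without BM LK 3 and 0.058 without BM LK 2. The CNS median was 0.041 without CNS LSK 2 and, without any other 1 library, -0.048 (CNS LSK 1) to -0.0059 (CNS LK 2). With a minimum mean of 50 counts 26 were higher in CNS, and with no filter 7 were, and in BM no filter left 19 higher. These niche-wise comparisons share libraries with the niche comparison above.

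The G2/M count moved with the settings, between 5 and 26 of 30 when 1 library was left out, and it was 28 by DESeq2. It was 26 without CNS LSK 2. It was 5 to 8 when the library left out was BM LSK 1, CNS LSK 1, CNS LSK 3, BM LK 1, BM LK 2, BM LK 4, CNS LK 1, CNS LK 2 or CNS LK 3. The list's median stayed between 0.36 and 0.49 over all these settings. Within BM its median was 0.45 and within CNS 0.40, with 0 of 30 passing in each.

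**Figure D5:**
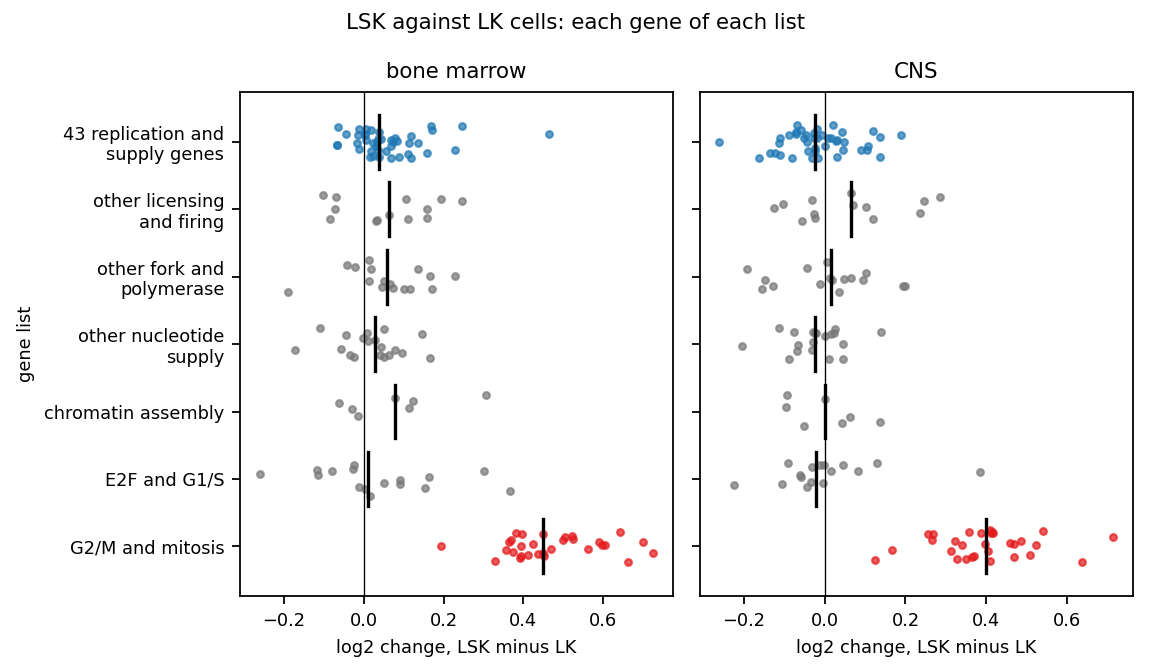
Fitted log2 change between LSK and LK cells of each gene (points) of 7 lists within BM (left) and CNS (right), with each list's median (black bar). The 43 replication and supply genes have medians of 0.037 and -0.023, and the G2/M list lies apart with medians of 0.45 and 0.40.

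Neighbouring pathways were read from lists of other genes. In LSK cells, CNS minus BM had medians of -0.064 for 13 other licensing and firing factors, -0.090 for 16 other fork and polymerase genes, -0.079 for 19 other nucleotide supply genes, -0.11 for 7 genes of chromatin assembly and methylation maintenance, and -0.085 for 16 E2F, pocket protein and G1/S genes. Lower values were found in 10 of 13, 14 of 16, 18 of 19, 7 of 7 and 14 of 16 of them, where 48.7% of all genes were lower. The median was 0.0056 over all genes and -0.035 over genes with a mean of at least 50 counts. In LK cells the medians of the lists were -0.053, -0.033, -0.021, -0.036 and -0.054 in that order, against 0.0050 over all genes and -0.012 over genes with a mean of at least 50 counts. None of these 71 genes passed in either LPC type, as 0% of all genes did. Between LSK and LK over both niches their medians were 0.065, 0.014, -0.00020, 0.040 and -0.021, against -0.011 and -0.032. None passed, where 0.238% of all genes did. The smallest adjusted p among the 71 was 0.111 (edgeR), for Dbf4, the activator of the Cdc7 kinase that fires origins, at 0.25. With the replicate number as a block Dbf4 passed (adjusted p = 0.0366, edgeR), as did 162 of all genes (0.858%). That fit, too, takes the BM and CNS libraries of a stem as separate. With counts summed per stem, no gene of the whole table passed.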

How the data were processed

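Bulk RNA was measured in 16 libraries, 4 in each of 4 groups, made, per the labels' protocols, with SMARTer Pico chemistry that keeps strand. The authors deposited 1 table of counts per Ensembl gene identifier, under a name that calls them normalised. DESeq2 and build GRCm39 are named in the submitters' processing notes, and the aligner, the counter, the use of strand and the use of molecular identifiers are not given in the sources used here. Its values were whole numbers and its totals differed between libraries, so it was treated as raw counts. If the authors had scaled them, the count-model p-values would not hold as given. Identifiers without a symbol held 41.8% of the counts, and the table had 0 value columns that went unused. Symbols, exon lengths and overlaps came from GENCODE M21 and promoters from RefSeq GRCm38.p6, neither of which is the build of the files, so those lengths are approximate. Exon length was the union of the annotated exons of all transcripts of a gene.

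Counts of genes with a mean of at least 10 were scaled by TMM and fitted with edgeR 4.0.16 (R 4.3.3, limma 3.58.1), with 4 group means over all 16 libraries and 7 two-sided quasi-likelihood contrasts. P-values were adjusted by Benjamini-Hochberg over the 18878 genes tested, with a threshold of 0.05. Levels are CPM, computed from the deposited counts, on TMM-scaled library sizes. DESeq2 1.42.0, RLE scaling, other filters, summing per stem, a block, and leaving out each library in turn were alternatives. Leaving out both LSK 2 libraries and the background index as a covariate were chosen after seeing the data. The 43 genes and all lists were chosen with earlier results of these data known. Genes given library by library were a fixed choice by role plus, for each contrast, the 3 of smallest unadjusted p. A marker of the label check is not reported here.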

Additional observations from a re-analysis of the deposited data

Results flagged for a closer look

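In 10 of 132 sets of 4 libraries, 1 library stood apart from the other 3, with a gap to its nearest neighbour above Dixon's 95% critical value. Chance gives about 1 in 20, or 6.6 sets. Pcna was at 152 CPM in CNS LK 4, against 120 to 125 in the other CNS LK libraries. Gins1 was at 11.2 CPM in CNS LSK 1, against 9.17 to 9.46. Lig1 was at 134 CPM in CNS LSK 2, against 183 to 190, and at 188 CPM in BM LK 3, against 157 to 158. Cdc6 stood apart in 3 groups, at 52.0 CPM in BM LSK 1 (others 47.3 to 48.0), 40.1 in CNS LSK 2 (others 51.3 to 52.1) and 46.4 in BM LK 1 (others 52.5 to 52.9). Rrm1 was at 205 CPM in BM LK 3, against 180 to 184. The background index was 342 in BM LK 4, against 479 to 496. The summed level of the 43 genes was 3258 CPM in BM LSK 2, against 3663 to 3717.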

How the results depend on the processing

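No gene of the 43 passed in any contrast under any alternative, except that 1 (Lig1, LSK minus LK over both niches) passed with both LSK 2 libraries left out. The cause was not tested. Every median of the 43 genes moved by at most 0.089 on the log2 scale, the spread of that median between libraries of a group. Apart from niche in LSK, each median was itself nearer to 0 than this, so a change of sign could go uncounted. The niche median in LK turned to 0.0087 without BM LK 3. That of LSK minus LK within CNS turned to 0.041 without CNS LSK 2. Among the log2 changes of single named genes, those of 9 genes changed sign in at least 1 alternative (27 gene and setting combinations). None passed the threshold, and the cause was not tested. Such changes were looked for in 43 pairs of gene and contrast. The genes chosen by role were followed for niche in LSK only. Every other contrast was followed only through its genes of smallest unadjusted p, so changes of sign there were hardly examined. Those found were all niche changes in LSK, and their values follow. A minimum mean of 50 counts gave Mcm10 0.0118 and Pola1 0.0217, no filter gave Cdc6 -0.0616, and leaving out both LSK 2 libraries gave Pola1 0.0366. The background index as a covariate gave Mcm10 0.0292, Cdc45 0.0273, Prim1 0.00437, Orc6 0.0347 and Tk1 0.0518. Leaving out 1 library at a time gave Mcm10 -0.101 to 0.0508, Pola1 -0.0725 to 0.0646, Cdc6 -0.0272 to 0.089, Gins2 -0.201 to 0.0111, Cdc45 -0.11 to 0.0472, Prim1 -0.0928 to 0.0126, Orc6 -0.151 to 0.0449 and Rrm1 -0.105 to 0.0155. DESeq2 called 40 genes of all over both LPC types for niche, 222 for LSK minus LK, 39 within BM and 6 within CNS, against 0, 45, 0 and 0 by edgeR. Fen1, with 52.7 counts on average, is limited by depth.

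Pairing was examined because BM and CNS libraries share stems and the groups share numbers. Over all genes tested, deviations of libraries of a stem correlated above 0.1 in 5 of 8 stems (median 0.178) and those of the same number in 4 of 8 pairs. Over genes with a mean of at least 50 counts they did so in 8 of 8 stems (0.335 to 0.616, median 0.430) and 6 of 8 pairs. Libraries of a stem thus deviated together among genes with a mean of at least 50 counts, which include all 43. Over all genes tested they did so less clearly. What a stem stands for is not given, and the fit without a block was kept, so its p-values ignore this pairing. With the replicate block, by stem for niche and by number for LPC type, 0 of the 43 genes passed in every contrast. Their smallest adjusted p for niche was then 0.362 in LSK, 0.789 in LK and 0.248 over both LPC types (edgeR). Of all genes 126 passed for niche over both LPC types, 26 in LSK, 12 in LK and 162 for LSK minus LK, where 23 of 30 G2/M genes did. With counts summed per stem that comparison called 0 of all 18878 genes. At an unadjusted p under 0.05, 9 of 43 were lower in CNS LSK with the block (4.59% of all genes) and 7 over both LPC types (5.38%), and Cdc6 turned to -0.00312 in LSK.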
